A study of Sus scrofa with 36 samples.

Results

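The genes described here are 10 fatty acid desaturases and elongases, namely the desaturases SCD, FADS1, FADS2 and FADS3 and the elongases ELOVL1, ELOVL2, ELOVL4, ELOVL5, ELOVL6 and ELOVL7. They were taken by symbol from the 31907 Ensembl pig gene identifiers counted in the cerebellum, of which 15029 carried a symbol. All 10 were found, and all 10 were among the 15356 genes that passed the filter on low counts.

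Desaturases insert double bonds into fatty acyl chains and elongases lengthen the chains, both in the endoplasmic reticulum. FADS2 and FADS1, together with ELOVL5 and ELOVL2, turn the essential fatty acids linoleic and α-linolenic acid, which come from the diet, into arachidonic and docosahexaenoic acid, the main polyunsaturated acids of neuronal membranes. SCD makes monounsaturated fatty acids, and ELOVL6, ELOVL1 and ELOVL7 lengthen saturated and monounsaturated chains, of which the longest are abundant in the lipids of myelin.

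Newborn pigs of both sexes from 6 litters were selected at birth as having normal birth weight (NBW) or intrauterine growth restriction (IUGR, a low birth weight with altered head shape). From 3 days of age they received a formula whose fat came from vegetable oils (VEG) or from bovine cream (MILK), and tissue was taken on study day 21 or 22. The piglets were crossbred Danish landrace, Yorkshire and Duroc, every piglet was formula-fed, and no sow-reared group was analysed here, so that the comparisons are between formulas. The 4 groups (MILK-NBW, VEG-NBW, MILK-IUGR, VEG-IUGR) held 9 piglets each, with 1 RNA-seq library per piglet and values counted as read pairs per gene.

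The authors left out 3 libraries of low RNA integrity, 1 each from VEG-NBW, VEG-IUGR and MILK-NBW, without naming them. Here the library with the largest share of read pairs not assigned to a gene was left out of each of these groups. That share was 43.6%, 64.3% and 31.5% in the 3 libraries and between 26.7% and 30.5% in the other 33. The 33 libraries held 16 females and 17 males and had 15516541 to 23027502 read pairs on genes (median 18025540). The left-out libraries differed from their groups in these very genes. In the VEG-IUGR library (replicate 5), ELOVL2, ELOVL5, ELOVL6 and ELOVL7 each had 0 counts among 7936202, and ELOVL1 stood at 264 CPM (counts scaled to library size). In the VEG-NBW library (replicate 2), SCD stood at 393 CPM and FADS2 at 149 CPM, and in the MILK-NBW library (replicate 3), SCD stood at 583 CPM and FADS2 at 213 CPM. Each of these SCD and FADS2 values was below the lowest value of its own group among the 33. Results are therefore given for the 33 libraries, with the result for all 36 beside those that change.

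The tissue label was checked against cell markers. The cerebellar granule cell receptor subunit GABRA6 stood between 197 and 392 CPM and the Purkinje cell gene PCP2 between 330 and 879 CPM over the 33 libraries, while the liver gene ALB did not exceed 6.54 CPM. The list of liver and adipose genes was not absent as a whole. Its median count was 80 for ALB, 36 for FGB and 27 for PLIN1, but 2640 for APOA1 and 382 for SERPINA1. The level of myelin marker transcripts differed widely between piglets. The myelin protein MBP ranged from 4386 to 27938 CPM, and the summed level of 12 oligodendrocyte and myelin markers ranged from 9214 to 33023 CPM in VEG-NBW, 10334 to 50594 in VEG-IUGR, 15484 to 33083 in MILK-NBW and 13272 to 35003 in MILK-IUGR. In bulk tissue, fewer cells of a type and less RNA per cell cannot be told apart.

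FADS3, FADS2 and FADS1 lie in this order on chromosome 2 of the Sscrofa11.1 assembly, at chr2:9607627-9627352, chr2:9633941-9666666 and chr2:9735425-9747405 in the RefSeq gene table, a cluster of 139779 bp. The gap between FADS3 and FADS2 is 6588 bp and that between FADS2 and FADS1 is 68758 bp. Annotated non-coding RNA genes overlap FADS3, FADS2 and ELOVL6, and since the strand setting of the counting was not stated in the sources used here, reads of these neighbours could be counted with them. SCD lies at chr14:111461560-111478033. The lowest count in any of the 33 libraries was 279 for FADS3, where counting error alone amounts to 5.99%, and the highest was 21623 for SCD. No transcript lengths were used, so levels are compared between piglets and not between genes.

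**Figure D1:**
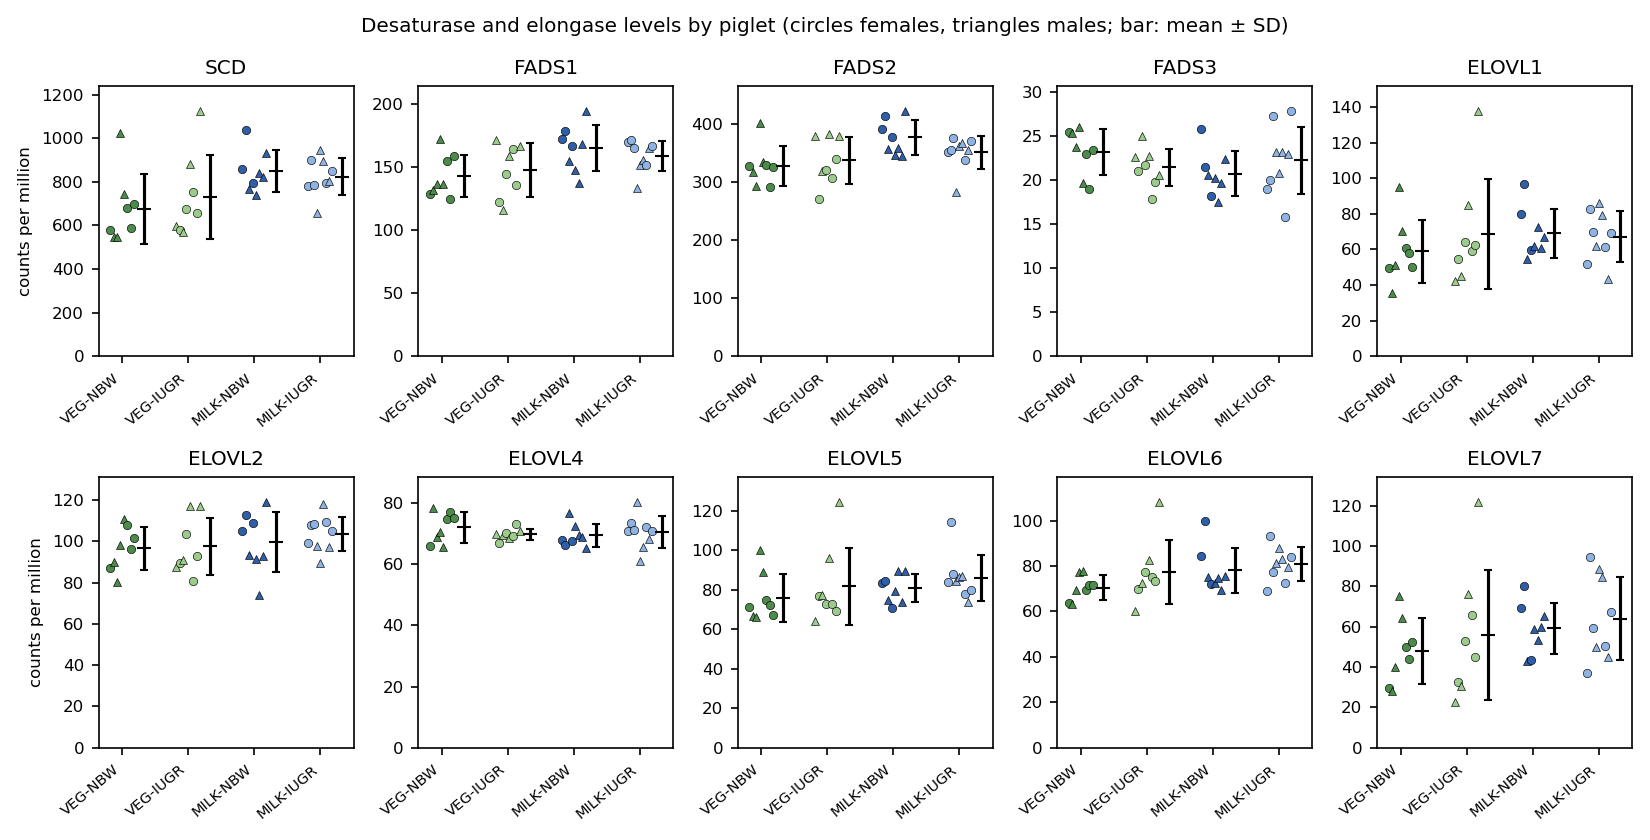
Level of each of the 10 genes in CPM (vertical axis, from 0) for each of the 33 piglets by group (horizontal axis), with circles for females, triangles for males and bars for the mean ± SD. The groups overlapped for every gene, the VEG groups held the lowest SCD values, and a single VEG-IUGR male was the highest piglet for SCD, ELOVL1, ELOVL5, ELOVL6 and ELOVL7.

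No pair of groups was separated completely by any of the 10 genes. Of all genes, 0.013% separated MILK-NBW from VEG-NBW and 0.00651% MILK-IUGR from MILK-NBW. The genes differed in how much they varied between piglets. The coefficient of variation over the 33 libraries was 37.7% for ELOVL7 and 29.8% for ELOVL1, against 19.4% for SCD, 16.3% for ELOVL5 and 10.6% to 13.3% for FADS1, FADS2, FADS3, ELOVL2 and ELOVL6. ELOVL4, which makes the very longest fatty acids of brain and retina, varied least, at 5.86%, while counting error alone amounts to 3.06% at its lowest count.

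The first question was whether the fat source changed the expression of these enzymes. No gene among the 15356 tested passed an adjusted p of 0.05 for diet in edgeR's quasi-likelihood test with sex and birth weight in the model, and none of the 10 did. The count of members past the adjusted threshold was also 0 with DESeq2 and with limma voom. At an unadjusted p under 0.05, 3 of the 10 genes differed, SCD, FADS1 and FADS2, all higher in MILK, where 4.26% of all genes differed and 1.95% were higher in MILK. The log2 difference was above 0 in 8 of the 10 genes, against 48% of all genes, and its median was 0.10 over the 10 genes and 0.00 over all genes.

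SCD, the Δ9-desaturase that forms oleic acid, showed the smallest p of the 10. In VEG-NBW it ran from 546 to 1022 CPM with a median of 634 (mean ± SD 675 ± 158, n = 8). In VEG-IUGR it ran from 569 to 1127 CPM with a median of 666 (730 ± 191, n = 8). In MILK-NBW it ran from 740 to 1036 CPM with a median of 830 (848 ± 96.0, n = 8), and in MILK-IUGR from 655 to 944 CPM with a median of 804 (823 ± 85.6, n = 9). Most MILK piglets thus lay above most VEG piglets, although the highest value of all came from VEG-IUGR. In all, 16 of 17 MILK piglets exceeded the VEG median, and SCD was higher in MILK in 80.5% of the pairs made of a MILK and a VEG piglet. The fitted log2 difference was 0.25 with a standard error (SE) of 0.085, or 1.19-fold (95% confidence interval 1.05 to 1.34). Its unadjusted p was 0.00576 and its adjusted p 0.985 in edgeR, and 68 other genes had a smaller p.

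FADS1, the Δ5-desaturase, catalyses the step that yields arachidonic and eicosapentaenoic acid. Its median was 137 CPM in VEG-NBW (range 125 to 172) and 152 in VEG-IUGR (116 to 172), against 168 in MILK-NBW (138 to 195) and 165 in MILK-IUGR (134 to 172). The groups overlapped, and 15 of 17 MILK piglets exceeded the VEG median. The mean was 145 ± 18.6 CPM in VEG (n = 16) and 162 ± 14.98 CPM in MILK (n = 17), a fitted 1.11-fold difference (1.03 to 1.21) with an unadjusted p of 0.00915 and an adjusted p of 0.985 in edgeR.

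FADS2, the Δ6-desaturase, opens the pathway from both essential fatty acids. Its median was 327 CPM in VEG-NBW (range 293 to 403), 331 in VEG-IUGR (271 to 383), 370 in MILK-NBW (345 to 424) and 355 in MILK-IUGR (284 to 377). In MILK-NBW even the lowest piglet exceeded the VEG medians. In MILK-IUGR the lowest piglet (replicate 4, 284 CPM) lay below them, and the next lowest (339 CPM) lay above. Both MILK groups overlapped the VEG groups. The mean was 333 ± 36.6 CPM in VEG (n = 16) and 364 ± 31.2 CPM in MILK (n = 17), a fitted 1.09-fold difference (1.02 to 1.17) with an unadjusted p of 0.0155 and an adjusted p of 0.985 in edgeR. FADS3, the third gene of the cluster, which acts on sphingoid bases, did not share this direction. Its mean was 22.3 ± 2.49 CPM in VEG and 21.5 ± 3.30 CPM in MILK, a log2 difference of -0.05 with an SE of 0.068 and an unadjusted p of 0.447.

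None of the 6 elongases reached an unadjusted p of 0.05 for diet in edgeR. ELOVL5 and ELOVL2, which lengthen the products of FADS2 and FADS1, had log2 differences of 0.08 (SE 0.072) and 0.07 (SE 0.059). ELOVL6, which extends palmitate towards stearate, came closest, with a mean of 73.9 ± 10.8 CPM in VEG and 79.5 ± 8.49 CPM in MILK and an unadjusted p of 0.0858. ELOVL7 had the same fitted log2 difference as SCD, 0.25, but an SE of 0.173, so that its 95% interval ran from 0.93-fold to 1.52-fold. Its levels ran from 22.9 to 122 CPM in VEG and from 37.0 to 94.3 CPM in MILK, and the MILK range lay wholly inside the VEG range. The log2 difference was 0.10 (SE 0.134) for ELOVL1 and -0.02 (SE 0.034) for ELOVL4. The interval of ELOVL4, 0.941-fold to 1.04-fold, was the narrowest of the 10.

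**Figure D2:**
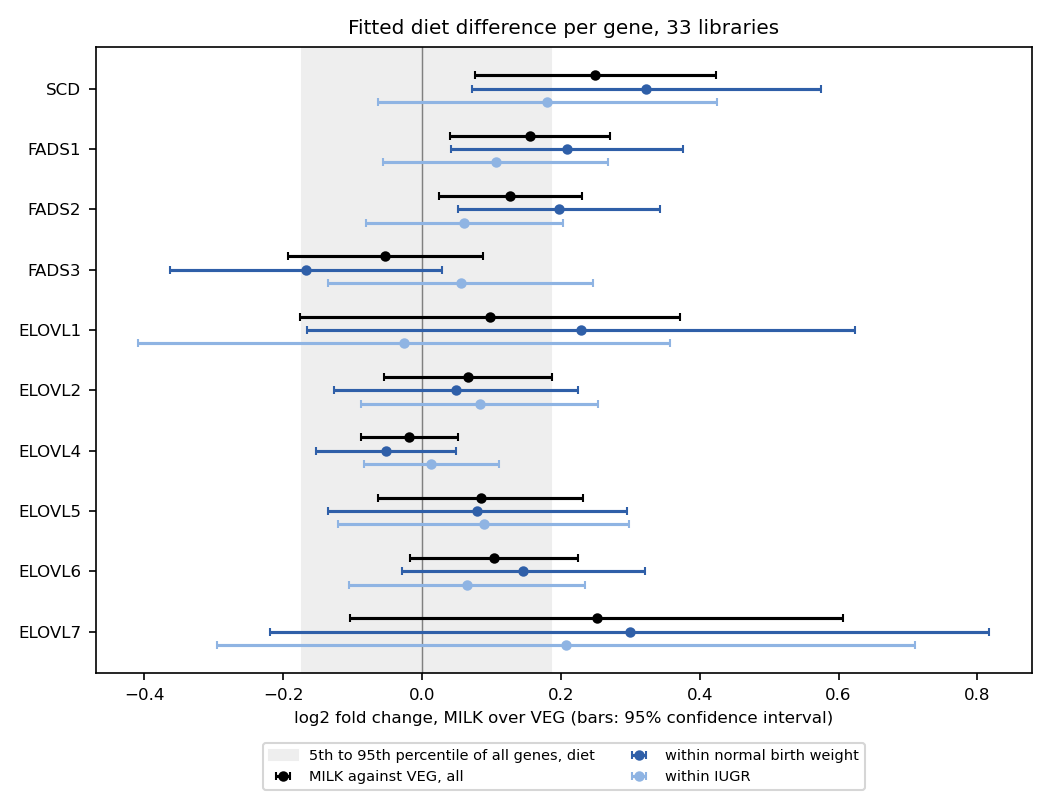
Fitted log2 fold change of MILK over VEG (horizontal axis) with its 95% confidence interval for each gene (vertical axis), over all 33 libraries (black), within normal birth weight (dark blue) and within IUGR (light blue), with the span from the 5th to the 95th percentile of all genes for diet in grey. The intervals of SCD, FADS1 and FADS2 lie above 0 over all libraries and within normal birth weight, and cross 0 within IUGR.

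Which libraries entered mattered for these 3 genes. When the 3 left-out libraries were included, SCD was the 1 member of 10 below 0.05 (log2 difference 0.32, unadjusted p = 0.0233 in edgeR), where 1.24% of all genes were. The unadjusted p was then 0.0674 for FADS1 and 0.133 for FADS2. Adding back the left-out MILK-NBW library alone also left SCD as the 1 member under 0.05, with FADS1 at 0.111 and FADS2 at 0.159, where 2.30% of all genes were under 0.05. With the VEG-IUGR library alone added back, SCD and FADS1 were under 0.05 and FADS2 was not (unadjusted p = 0.105 in edgeR), and with the VEG-NBW library all 3 were. Leaving out VEG-IUGR replicate 9, the male with the highest myelin markers, raised the number from 3 to 6 by adding ELOVL5, ELOVL6 and ELOVL7, and raised the share of all genes under 0.05 from 4.26% to 6.33%. Leaving out any other of the 33 libraries gave 3.

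The diets were also compared within each birth weight. Among NBW piglets, the same 3 genes had an unadjusted p under 0.05 in edgeR, all higher in MILK, where 6.67% of all genes did and 2.09% were higher. The log2 difference was 0.32 for SCD (SE 0.123, unadjusted p = 0.0126), 0.21 for FADS1 (SE 0.081, unadjusted p = 0.0150) and 0.20 for FADS2 (SE 0.071, unadjusted p = 0.00883), and the adjusted p was between 0.711 and 0.721 in edgeR. All 8 MILK-NBW piglets lay above the VEG-NBW median for each of the 3 genes, and FADS2 was higher in MILK in 90.6% of the piglet pairs. With all 36 libraries, 0 of the 10 were below 0.05 in this comparison, and the share of all genes was not counted for that fit. Among IUGR piglets, 0 of the 10 genes had an unadjusted p under 0.05 in edgeR, where 3.90% of all genes did. The log2 difference was 0.18 for SCD (SE 0.119), 0.11 for FADS1 (SE 0.079) and 0.06 for FADS2 (SE 0.069). Without VEG-IUGR replicate 9, SCD, ELOVL5 and ELOVL6 fell under 0.05 here, and the share of all genes was not counted for that fit.

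Although the NBW differences were larger, they were not shown to differ from those of IUGR piglets. In the test of the interaction of diet and birth weight, 0 of the 10 genes had an unadjusted p under 0.05 in edgeR, against 6.09% of all genes. The difference of the log2 differences, IUGR minus NBW, was -0.14 for SCD (95% interval -0.49 to 0.21), -0.10 for FADS1 (-0.34 to 0.13) and -0.14 for FADS2 (-0.34 to 0.07). The smallest p of the 10 belonged to FADS3 (0.22, SE 0.134, unadjusted p = 0.105 in edgeR), which was lower in MILK than in VEG among NBW piglets (log2 difference -0.17) and slightly higher among IUGR piglets (0.06). Leaving out MILK-NBW replicate 1 or MILK-IUGR replicate 7 brought FADS3 under 0.05, and the share of all genes was not counted for those fits.

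Birth weight itself left the 10 genes close together. None passed an adjusted p of 0.05 or an unadjusted p of 0.05 in edgeR, and 2.19% of all genes passed the latter. IUGR minus NBW log2 differences ran from -0.03 for FADS2 to 0.17 for ELOVL7. SCD ran from 546 to 1036 CPM in NBW (762 ± 155, n = 16) and from 569 to 1127 CPM in IUGR (779 ± 148, n = 17), a log2 difference of 0.04 with a 95% interval of -0.14 to 0.21. Within VEG and within MILK, the IUGR and NBW groups likewise gave 0 of 10 genes under 0.05, with 2.29% and 6.24% of all genes under it. With all 36 libraries ELOVL1 fell under 0.05 in VEG-IUGR against VEG-NBW, where the left-out VEG-IUGR library holds its highest value. The share of all genes was not counted for that fit.

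Males and females did not differ in any of the 10 genes at an unadjusted p of 0.05 in edgeR (2.94% of all genes), and the male minus female log2 differences ran from -0.04 for ELOVL2 to 0.13 for ELOVL7. The diet difference was then taken apart by sex, a comparison added after the data were seen. In females, 6 of the 10 genes had an unadjusted p under 0.05, SCD, FADS1, FADS2, ELOVL2, ELOVL5 and ELOVL6, all higher in MILK, where 3.15% of all genes differed and 1.92% were higher. In males, 0 of the 10 did, where 5.05% of all genes differed. No gene passed an adjusted p of 0.05 in either sex.

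SCD separated the diets completely in females. The 8 VEG females ran from 578 to 751 CPM (651 ± 63.7) and the 8 MILK females from 782 to 1036 CPM (849 ± 86.2), a log2 difference of 0.38 with an SE of 0.120. Complete separation of these females was met by 3 of the 15356 genes, or 0.0195%, namely SCD, DNAJC14 and C10orf105, named here after their values were seen. The 8 VEG males ran from 546 to 1127 CPM (754 ± 231) and the 9 MILK males from 655 to 944 CPM (822 ± 94.0), so that the VEG males enclosed the MILK males. FADS2 came close to separating in females, with 271 to 340 CPM in VEG and 339 to 415 CPM in MILK, and had the smallest unadjusted p there (0.000764 in edgeR, adjusted p = 1). In males FADS2 ran from 294 to 403 CPM in VEG and from 284 to 424 CPM in MILK, and no member separated the diets in males, where 0.013% of all genes did.

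The difference between the sexes was itself tested. The male minus female contrast of the diet difference had an unadjusted p under 0.05 for 1 of the 10 genes, FADS2 (-0.24, SE 0.094, unadjusted p = 0.0172, adjusted p = 0.998 in edgeR), where 4.02% of all genes did. It was -0.25 for SCD (SE 0.167, unadjusted p = 0.138) and -0.28 for ELOVL5 (SE 0.139, unadjusted p = 0.0525). Without VEG-IUGR replicate 9, a male, the male diet difference of SCD was 0.23 rather than 0.13, with an unadjusted p of 0.0380, and FADS2 was again the 1 member under 0.05 in the contrast of the sexes (unadjusted p = 0.0291). There 5.99% of all genes were under 0.05 in males and 3.58% in the contrast of the sexes. With all 36 libraries, females had 3 of the 10 under 0.05 (SCD, FADS1 and FADS2), all higher in MILK, and the contrast of the sexes 0. In that fit 6.79% of all genes were under 0.05 in females and 0.789% were higher. In the contrast of the sexes 2.58% were under 0.05. The median of the summed myelin markers was 17862 CPM in VEG females and 21745 CPM in MILK females, and 18378 and 22554 CPM in VEG and MILK males, where single VEG males reached from 9229 to 51239 CPM. Their mean was 17332 and 23144 CPM in VEG and MILK females, and 22789 and 22511 CPM in VEG and MILK males. With the mean of the myelin markers as a covariate, SCD, FADS1 and FADS2 were the 3 members under 0.05 in females, where 1.96% of all genes were. The part of the myelin markers in the result was not otherwise tested.

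**Figure D3:**
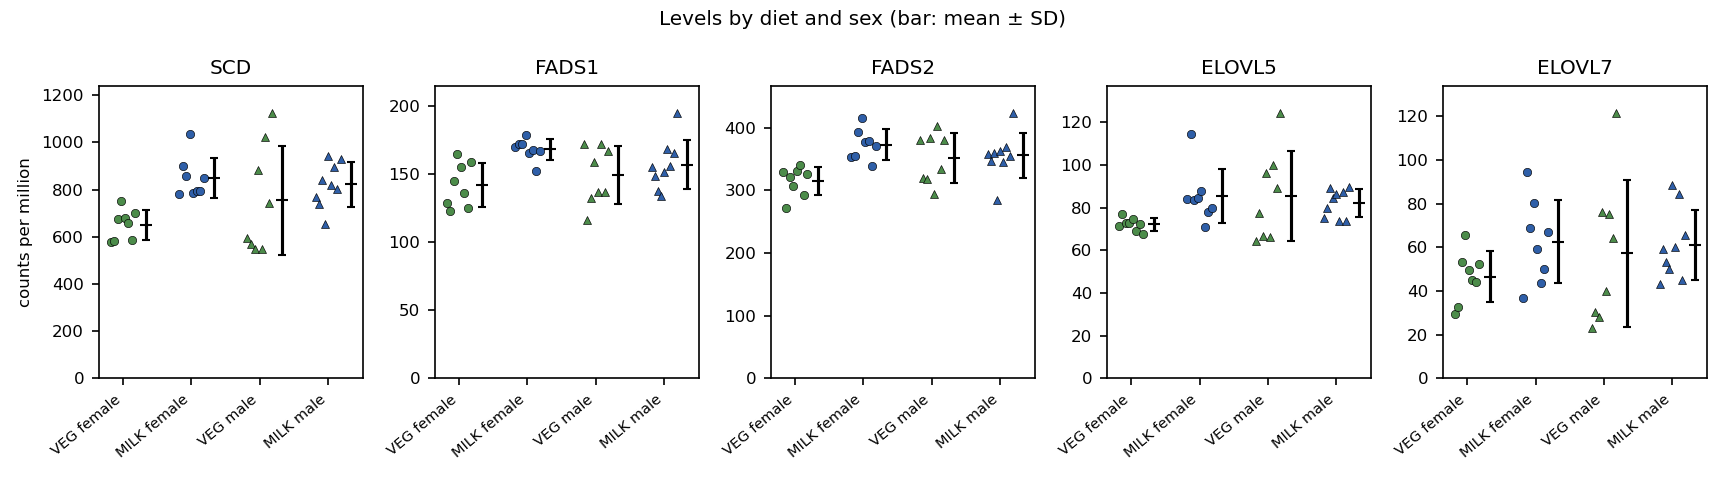
Level of 5 of the genes in CPM (vertical axis, from 0) in VEG and MILK females (circles) and males (triangles), each point 1 piglet, with bars for the mean ± SD. SCD values of VEG females end at 751 and those of MILK females begin at 782, while the VEG males spread from 546 to 1127.

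The 10 genes did not vary independently of each other. Of the 45 pairs, 26 were correlated across the 33 piglets at an adjusted permutation p under 0.05 (100000 permutations of log2 CPM, two-sided, adjusted over the 45 pairs), all 26 of them positively. The share of such pairs among all genes was not computed, so whether 26 of 45 is more than usual was not tested. ELOVL1, ELOVL5, ELOVL6, ELOVL7 and SCD formed the tightest group, with Pearson's r of 0.75 to 0.89 in all of their pairs. The highest was that of ELOVL1 and ELOVL7, with r = 0.89 and rho = 0.89 (adjusted permutation p = 3.46e-05 and 3.75e-05, from the smallest p the permutations can give), and r = 0.86 without the 2 piglets farthest from the median of ELOVL1. With all 36 libraries the r of this pair was -0.40, whereas rho was 0.73 and r without the 2 farthest libraries was 0.86.

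FADS1 and FADS2 formed a second pair, with r = 0.78 and rho = 0.79 (adjusted permutation p = 3.46e-05 and 3.75e-05), and r = 0.76 without the 2 farthest piglets. SCD was correlated with both, with r = 0.73 with FADS1 and r = 0.77 with FADS2, and so belonged to the elongase group and the FADS pair alike. FADS3, although it lies 6588 bp from FADS2, showed no detected correlation with it across the 33 piglets (r = 0.14, rho = 0.11, adjusted permutation p = 0.551 and 0.654). With the 4 group means and sex taken out of the values, r was 0.31 and rho 0.40 (adjusted permutation p = 0.128 and 0.0424). ELOVL4 had negative r with all members other than FADS3, the lowest being -0.38 with FADS2 (rho = -0.35, adjusted permutation p = 0.0514 and 0.0779).

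**Figure D4:**
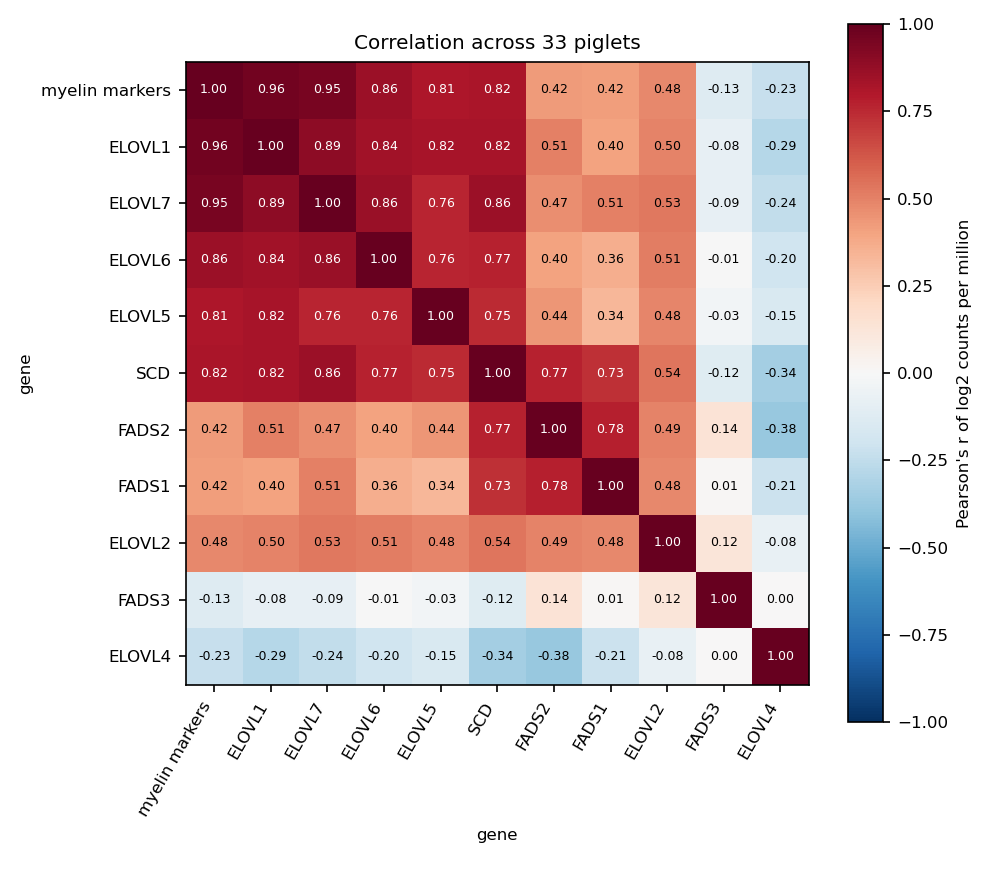
Pearson's r of log2 CPM across the 33 piglets for the mean of the myelin markers and the 10 genes (both axes), from -1 (blue) to 1 (red). ELOVL1, ELOVL7, ELOVL6, ELOVL5 and SCD form a block with the myelin markers at 0.75 to 0.96, FADS1 and FADS2 a pair at 0.78, and FADS3 and ELOVL4 stand apart near or below 0.

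The elongase group was correlated with the transcripts of the myelin markers. Against the mean log2 CPM of the 12 oligodendrocyte and myelin markers, 8 of the 10 genes were correlated at an adjusted permutation p under 0.05, adjusted over the 10 genes. The share of all genes correlated with these markers was not computed, so whether 8 of 10 is particular to this family was not tested. The r was 0.96 for ELOVL1 (rho 0.95), 0.95 for ELOVL7 (rho 0.94), 0.86 for ELOVL6 (rho 0.78), 0.82 for SCD (rho 0.78) and 0.81 for ELOVL5 (rho 0.75), each with an adjusted permutation p of 2e-05 for r and rho alike. Without the 2 piglets farthest from the median of the markers, these r ran from 0.74 to 0.95. The relation was looser for ELOVL2 (r = 0.48, rho = 0.46, adjusted permutation p = 0.0074 and 0.0105), FADS2 (r = 0.42, rho = 0.48, p = 0.0179 and 0.00835) and FADS1 (r = 0.42, rho = 0.42, p = 0.0179 and 0.0182), and it was not detected for FADS3 (r = -0.13, rho = -0.11, p = 0.476 and 0.542) or ELOVL4 (r = -0.23, rho = -0.24, p = 0.218 and 0.199). Without the 2 piglets farthest from the median of the markers, r was 0.41 for ELOVL2, 0.38 for FADS2 and 0.36 for FADS1. With the 4 group means and sex also taken out, these r were 0.39, 0.19 and 0.19. All values share the library's scaling.

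The relation was repeated within each diet and each sex. The labels give no batch, and a split by diet or sex cannot examine one. For ELOVL1 and ELOVL7 r was between 0.92 and 0.98 in VEG, MILK, females and males. For SCD it was 0.91 in VEG and 0.63 in MILK, and for ELOVL2 0.67 in VEG and 0.16 in MILK, a difference that was not tested. FADS1 had r = 0.50 in VEG and 0.08 in MILK, with adjusted permutation p = 0.0683 and 0.745. FADS2 had r = 0.44 in VEG and 0.26 in MILK, with adjusted permutation p = 0.115 and 0.465. With all 36 libraries, r for ELOVL1 was -0.09, whereas rho was 0.75 and r without the 2 farthest libraries was 0.95. The left-out VEG-IUGR library holds the highest ELOVL1 value.

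**Figure D5:**
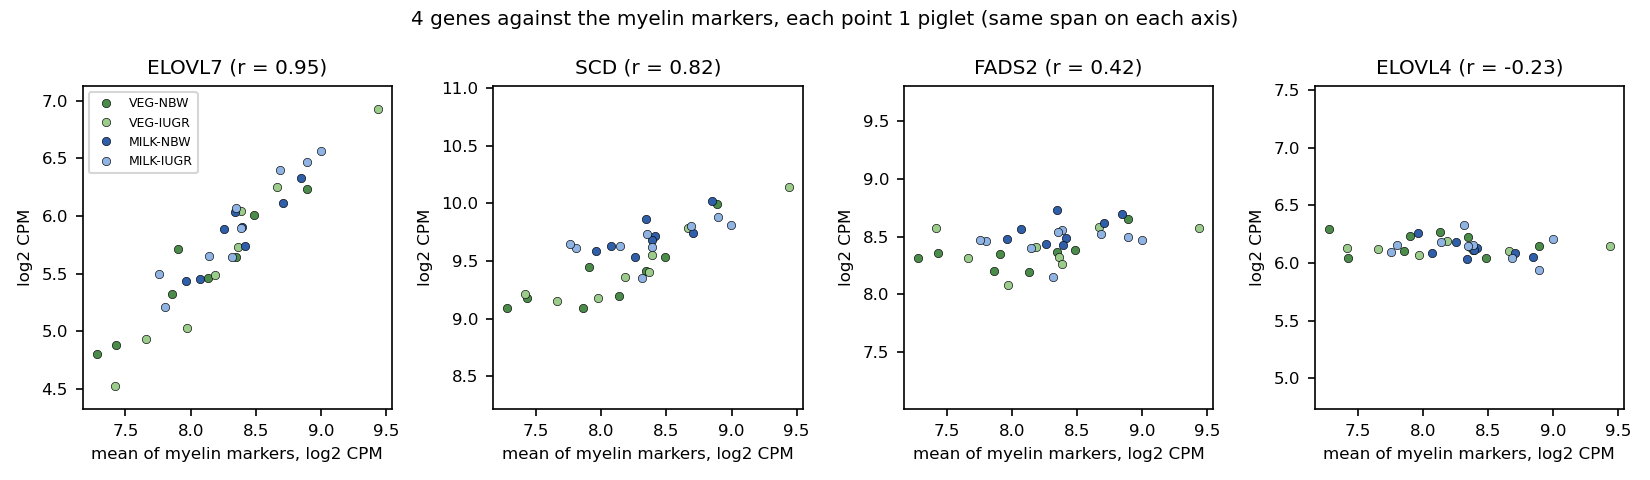
Level of ELOVL7, SCD, FADS2 and ELOVL4 in log2 CPM (vertical axes, of equal span) against the mean log2 CPM of 12 myelin markers (horizontal axis), each point 1 piglet coloured by group. ELOVL7 rises along the whole axis (r = 0.95), SCD less steeply (r = 0.82) and FADS2 little (r = 0.42), and ELOVL4 shows no rise (r = -0.23).

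Other cell types were compared with the 10 genes in the same way, over 100 pairs of a marker list and a gene, adjusted together. The oligodendrocyte precursor markers (PDGFRA, CSPG4, OLIG1, OLIG2, SOX10, GPR17 and BCAS1) gave r of 0.76 to 0.93 with ELOVL1, ELOVL5, ELOVL6, ELOVL7 and SCD. Whether this list follows cells other than those of the myelin list was not tested. The granule neuron markers ran the opposite way, with r of -0.41 to -0.68 for the 8 genes other than FADS3 and ELOVL4, of which 7 passed an adjusted permutation p of 0.05 and ELOVL6 did not (0.0549). FADS2 had r = 0.59 with the astrocyte and Bergmann glia markers (rho = 0.50, adjusted permutation p = 0.00238 and 0.0165). Its r with the myelin markers was 0.42, and the difference was not tested. With the choroid plexus and meningeal markers, 0 of the 10 genes were correlated at an adjusted permutation p under 0.05. The share of all genes correlated with each of these lists was not computed.

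Diet and cell markers were therefore set side by side. All 12 myelin markers had a log2 difference above 0 for diet, with a median of 0.15, and none an unadjusted p under 0.05. The log2 difference was also above 0 for all 7 oligodendrocyte precursor markers (median 0.09), all 8 Purkinje cell markers (median 0.06), all 6 endothelial markers (median 0.10, 1 with an unadjusted p under 0.05) and 7 of 9 astrocyte and Bergmann glia markers (median 0.07). The 3 red blood cell markers tested were all below 0 (median -0.79, 1 under 0.05). Above 0 were 3 of 12 granule neuron markers (median -0.02), 2 of 7 meningeal (-0.04), 5 of 6 interneuron (0.04), 5 of 8 microglia (0.05) and 3 of 6 choroid plexus markers (0.04, 1 under 0.05). Of the liver and adipose list 0 of 5 were (median -0.04). Of all genes 48% were above 0, and 4.26% had an unadjusted p under 0.05. The median of the summed astrocyte and Bergmann glia markers was 6720 CPM in VEG-NBW, 7207 in VEG-IUGR, 8633 in MILK-NBW and 7609 in MILK-IUGR. The part of these other cell types in the diet differences was not tested. When the mean of the myelin markers was added to the model as a covariate, the log2 difference of diet went from 0.25 to 0.10 for ELOVL7, from 0.08 to 0.02 for ELOVL5 and from 0.10 to -0.03 for ELOVL1. It went from 0.25 to 0.18 for SCD (unadjusted p = 0.000952 in edgeR), from 0.16 to 0.13 for FADS1 (unadjusted p = 0.0208) and from 0.13 to 0.10 for FADS2 (unadjusted p = 0.0377), where 3.01% of all genes were under 0.05. The adjusted p of these 3 genes was at least 0.999 in that fit.

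The genes whose pattern over the 33 piglets was most like that of each member differed with the group. ELOVL1 was nearest to CERS2 (r = 0.97), the ceramide synthase for very long acyl chains, with the myelin gene CLDN11 (0.96) also among its 3 nearest. ELOVL7 was nearest to UGT8 (0.97), which makes galactosylceramide, then SLC44A1 (0.97), a choline transporter. ELOVL6 had DOCK10 (0.87) and UGT8 (0.87) among its 3 nearest, and ELOVL5 was nearest to PEDS1 (0.88), the plasmanylethanolamine desaturase, with HSD17B12 (0.86), the reductase of the elongation cycle, in the third place. SCD was nearest to FGFR2 (0.91), then ACAT2 (0.91), an enzyme of the cholesterol pathway, and KCNJ10 (0.90), a potassium channel of glia. FADS2 was nearest to S1PR1 (0.87), a sphingosine phosphate receptor, then CYB5R3 (0.83), a cytochrome b5 reductase, and FADS1 to TIMP4 (0.79), S1PR1 (0.79) and FADS2 (0.78). FADS3, ELOVL2 and ELOVL4 had no close likeness, with best r of 0.70, 0.67 and 0.62, to DPAGT1, CAPN2 and STC2. These r describe 33 piglets and 12515 candidate genes and were not tested.

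The wider pathway was described with 7 further lists of genes, in which 0 genes passed an adjusted p of 0.05 for diet in edgeR. Of the other desaturases, hydroxylase and elongase examined, 5 of 6 could be tested and 0 had an unadjusted p under 0.05, where 4.26% of all genes did. SCD5, the other stearoyl-CoA desaturase, had a log2 difference of 0.07 (SE 0.055) and FADS6 -0.03 (SE 0.047), while ELOVL3 was below the filter with at most 2 counts in any library. Among 10 genes of the elongation cycle and of the cytochrome b5 system that passes electrons to desaturases, HACD1, a dehydratase of the cycle, had the smallest unadjusted p for diet (0.16, SE 0.081, unadjusted p = 0.0512 in edgeR), and HSD17B12 stood at 0.05 (SE 0.054).

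De novo fatty acid synthesis, which supplies SCD and ELOVL6 with substrate, had 7 of 8 tested genes above 0 for diet with a median log2 difference of 0.06, and 0 of 8 under 0.05. Of all genes 48% were above 0 and 4.26% under 0.05. FASN, the synthase itself, was the exception at -0.04 (SE 0.076), and THRSP, a lipogenic regulator, had the smallest p (0.62, SE 0.359, unadjusted p = 0.0937). Of 14 regulators of lipid synthesis 0 were under 0.05, with SREBF1, the transcription factor of lipogenic genes, at 0.01 (SE 0.079) and INSIG1, which holds it in check, at 0.11 (SE 0.072). The peroxisomal enzymes, which shorten the last precursor to docosahexaenoic acid, had 0 of 10 genes under 0.05, with HSD17B4 at 0.08 (SE 0.042). Among 17 acyl-CoA synthetases and acyltransferases, 1 was under 0.05, the acyltransferase LCLAT1, lower in MILK (-0.14, SE 0.059, unadjusted p = 0.0239). That number is near the share of 4.26% over all genes. Of 11 genes of fatty acid uptake and binding 0 were under 0.05, with FABP7, the brain fatty acid binding protein, at 0.09 (SE 0.078) and ACBD3 at 0.05 (SE 0.031).

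For the interaction of diet and birth weight, where 6.09% of all genes were under an unadjusted p of 0.05 in edgeR, 2 of 10, 3 of 17 and 1 of 11 genes were so in 3 of the lists and none in the other 4, with adjusted p of at least 0.784. In the elongation and electron list these were CYB5R3 (-0.34, SE 0.147) and CYB5R4 (0.25), in the synthetase and acyltransferase list ACSL6 (0.17, SE 0.069), ACSL3 (0.15) and LPCAT1 (-0.22), and in the uptake list SLC27A4 (-0.20, SE 0.080). SREBF1 (-0.29, SE 0.153, unadjusted p = 0.0629) and FASN (-0.27, SE 0.148, unadjusted p = 0.0736) did not reach it. All 8 genes of de novo synthesis had a negative difference of differences, with a median of -0.15, as did all 7 oligodendrocyte precursor markers and 11 of the 12 myelin markers. The part of cell composition in these values was not tested. For birth weight, 0 genes of the 7 lists were under 0.05, where 2.19% of all genes were.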

How the data were processed

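Total RNA of cerebellum was sequenced as paired-end reads. The authors deposited 1 table per piglet of raw counts of read pairs per Ensembl gene, not normalized, with 5 closing rows for reads without a gene (left out of library sizes). The submitters' notes name Trim Galore, HISAT2, HTSeq, DESeq2 and Sscrofa11.1. Versions and the strand setting are not given in the sources used here, and litter is not in the labels.

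Groups and sex came from the labels. Replicate numbers only name piglets within a group. Counts of 33 libraries were scaled by TMM, filtered with filterByExpr (minimum count 10) and tested with edgeR 4.0.16 in R 4.3.3 by its quasi-likelihood F test. Sex was in every model of the main result, and was left out of some alternatives and of the fits of a single sex. The effects of diet and of birth weight came from an additive model, and the interaction and 4 contrasts in a model of group means. Benjamini-Hochberg adjustment ran over all 15356 genes. CPM are TMM-scaled, and log2 CPM use a prior count of 2. Alternatives included DESeq2 1.42.0, limma 3.58.1 voom, other filters and scalings, all 36 libraries and each library left out in turn. The fits were tested on simulated data. Each piglet is a separate animal, but the piglets came from 6 litters. No model, interval or permutation here took litter into account, so littermates were treated as independent. The genes, the lists and the choice of 33 libraries were made with earlier results of these data known. Named genes are the 10 members, in each pathway list the gene with the smallest p for diet, birth weight or the interaction, further preset pathway genes (of which TECR had no identifier), and the 3 genes most correlated with each member, of which some are not reported here. Other names were chosen after their values were seen.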

Additional observations from a re-analysis of the deposited data

Results flagged for a closer look

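Of 40 sets of values (10 genes in 4 groups of 8 or 9 piglets), 6 held a piglet whose distance to its nearest neighbour was large against the range of its group by Dixon's criterion. Chance sets apart about 1 group in 20. VEG-NBW replicate 5, a male, was the highest of its group for SCD (1022 CPM, the next being 742) and for FADS2 (403 CPM, the next 334). VEG-IUGR replicate 9, also a male, was the highest for ELOVL1 (138 CPM, the next 84.8) and ELOVL6 (108 CPM, the next 82.6). MILK-IUGR replicate 4 was the lowest for FADS2 (284 CPM, the next 339), and MILK-IUGR replicate 2 the highest for ELOVL5 (114.5 CPM, the next 87.9). Without VEG-NBW replicate 5 the log2 difference of MILK-NBW over VEG-NBW went from 0.32 to 0.43 for SCD and from 0.20 to 0.24 for FADS2.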

How the results depend on the processing

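No member passed an adjusted p of 0.05 in any of the 8 comparisons under any alternative run, nor of 0.1 with the 33 libraries, and the smallest adjusted p of a member in any of these fits was 0.266. Leaving out each library in turn kept that number at 0 throughout. The number of members under an unadjusted p of 0.05 for diet was 3 in the main result, 1 with all 36 libraries, 1 with the left-out MILK-NBW library added back, 5 with limma voom, 8 in a fit of the females alone, 0 in a fit of the males alone, and 3 to 6 over the libraries left out in turn. The share of all genes under 0.05 was, in the same order, 4.26%, 1.24%, 2.30%, 7.70%, 4.63%, 4.72%, and 2.94% to 6.33%. The causes were not tested, and the added-back library, the fits by sex, the split of diet by sex and the correlations with marker lists other than myelin were chosen after seeing the data. For MILK-NBW against VEG-NBW it was 0 with all 36 libraries and 3 to 4 with a library left out. For MILK-IUGR against VEG-IUGR it was 1 with limma voom, 2 with the myelin markers as a covariate and 0 to 3 with a library left out. For VEG-IUGR against VEG-NBW it was 1 with all 36 libraries, and 0 to 1 with a library left out there, for birth weight and for the interaction. Apart from diet and the comparisons by sex, the share of all genes under each alternative was not counted. By sex, females gave 3 with all 36 libraries and 3 with the myelin covariate, males gave 1 without VEG-IUGR replicate 9, and the contrast of the sexes gave 0 with all 36 libraries and 2 with the myelin covariate. The share of all genes was, in the same order, 6.79%, 1.96%, 5.99%, 2.58% and 4.26%.

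Of 276 recomputed member values, 13 changed sign. For diet these were ELOVL1 (-0.062 with all 36 libraries, -0.029 with the myelin covariate, -0.11 with the left-out VEG-IUGR library, -0.091 in males), ELOVL4 (0.066 with all 36, 0.063 with the left-out VEG-IUGR library), FADS3 (0.040 in females), ELOVL2 (-0.025 in males) and ELOVL5 (-0.050 in males). For the interaction it was FADS2 (0.0034 with all 36). For the correlation with myelin markers, with all 36 libraries, they were FADS3 (0.12), ELOVL1 (-0.090) and ELOVL4 (0.75), by Pearson's r only. Spearman's rho was -0.126, 0.752 and -0.087 there, of the same sign as with 33 libraries. No log2 difference changed sign when 1 library was left out. The correlated pairs and the members correlated with myelin markers stayed within 1.5 times of their number under each alternative. The r of single pairs of members was not among the 276 values, and some changed sign. With all 36 libraries r of ELOVL1 was -0.58 with ELOVL5, -0.59 with ELOVL6 and -0.40 with ELOVL7, against 0.82, 0.84 and 0.89 with 33. The rho of these pairs was 0.62, 0.62 and 0.73 with all 36. The r of ELOVL2 and ELOVL4 went from -0.08 to 0.98, with a rho of -0.02. No paired analysis was possible because the labels give no numbers shared between groups.

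Counting error at the lowest count was 3.06% for ELOVL4, beside a spread between piglets of 5.86% overall and 2.51% in VEG-IUGR, and 5.99% for FADS3, beside 13.3%, so depth limits these 2 genes too. It was 1.05% for SCD, beside 19.4%.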
